A study of Homo sapiens with 19 samples.

Results

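Semaphorins and their receptors of B cells were followed here as a set of 8 genes: the ligands SEMA7A, SEMA4A, SEMA4B and SEMA4D, the plexin receptors PLXNC1, PLXNB2 and PLXND1, and the integrin chain ITGB1. They were picked by name, with their values in these libraries already known, as 8 of the 25365 genes used in the OCI-LY10 table, 25267 in the TMD8 table and 25266 in the SUDHL2 table. All 8 are present in each table. The contrasts between EGR1 hairpins and control hairpin were among the values that chose them, so for these genes those contrasts are given as a description with no p.

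The study asked what changes in lymphoma cells when EGR1, a transcription factor that antigen receptor and growth factor signals induce early, is targeted by RNA interference. OCI-LY10, TMD8 and SUDHL2 are established human cell lines, all from diffuse large B-cell lymphoma of the activated type. Cells carried the inducible hairpin shEGR1#8, the inducible hairpin shEGR1#9 or a control hairpin, and all of them, controls included, received 20 ng/ml doxycycline for 2 days. RNA was sequenced from 9 OCI-LY10 libraries (3 with shEGR1#8, 3 with shEGR1#9, 3 controls), 3 TMD8 libraries and 3 SUDHL2 libraries (1 per group). The labels do not say whether each hairpin line was 1 clone or a pool, nor whether replicate libraries stem from separate cultures. P-values therefore rest on the spread among these libraries alone, and that spread may be technical. Another 4 samples of the series, chromatin immunoprecipitation and input, were not analysed here.

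Semaphorins are secreted or membrane-bound ligands that signal mainly through plexins, large receptors whose inner part acts on small GTPases and so on cell shape and adhesion. In the immune system the membrane-bound class 4 members and SEMA7A guide contacts between lymphocytes, dendritic cells and macrophages. SEMA4D (CD100) binds CD72 on B cells and plexin-B receptors on other cells. SEMA4A costimulates T cells. SEMA7A (CD108) is held to the membrane by a lipid anchor and binds PLXNC1 and integrins that contain the beta-1 chain encoded by ITGB1. PLXND1 binds SEMA3E and SEMA4A and, in mice, takes part in the germinal centre response.

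EGR1 binds a GC-rich element, GCGTGGGCG, and windows of 250 bases before a transcription start of the 8 genes were therefore taken from a table of RefSeq promoters (GRCh38.p14) and searched on both strands. The table gave 16 windows, at least 1 per gene, which need not cover every annotated start: the outermost start is among them for SEMA7A, SEMA4B, PLXNC1, PLXND1 and ITGB1. The element was in 0 of these 16 windows, while 0.720% of all 35116 windows hold it. With any base between GCG and GGGCG (GCGNGGGCG) it was in 1 of 16, a window of PLXND1, against 8.41% of all windows. The GC box GGGGCGGGG, the element of the SP and KLF zinc finger factors, was in 4 of 16 windows, those of SEMA7A, SEMA4B and PLXND1, against 15.1% of all windows. The sequence of SEMA7A is shown because its difference between hairpin labels and control in OCI-LY10 was the largest of the set. That of PLXND1 is shown because it alone holds the looser EGR1-type motif. The SEMA7A window is chr15:74433959-74434208 on the minus strand, with a GC content of 70.0% and 2 GC boxes, in capitals, that begin 82 and 70 bases before the start. The PLXND1 window is chr3:129606677-129606926 on the minus strand, with the EGR1-type match, in capitals, read on the opposite strand from 158 bases before the start and overlapping 2 GC boxes left in lower case.
SEMA7A: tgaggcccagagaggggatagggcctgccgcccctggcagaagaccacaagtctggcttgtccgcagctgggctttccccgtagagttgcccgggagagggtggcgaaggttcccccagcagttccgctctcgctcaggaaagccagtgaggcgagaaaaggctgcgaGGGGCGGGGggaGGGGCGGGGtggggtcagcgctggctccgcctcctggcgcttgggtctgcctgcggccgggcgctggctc
PLXND1: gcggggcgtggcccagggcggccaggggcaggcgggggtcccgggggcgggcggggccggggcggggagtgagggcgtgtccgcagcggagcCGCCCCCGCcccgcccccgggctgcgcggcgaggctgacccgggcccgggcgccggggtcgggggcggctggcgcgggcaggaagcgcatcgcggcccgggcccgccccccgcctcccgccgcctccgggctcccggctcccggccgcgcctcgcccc
A match is a run of letters and not a known binding site.

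The values are read as FPKM, sequenced fragments scaled to gene length and library size. EGR1 itself, the targeted gene, stood at 10.0, 11.4 and 20.5 FPKM in the OCI-LY10 libraries labelled shEGR1#8, at 10.8, 11.8 and 22.7 FPKM in those labelled shEGR1#9, and at 8.57, 9.59 and 12.3 FPKM in control libraries. The groups overlapped, and both hairpin labels together differed from control by 0.42 ± 0.27 log2 units (SE; limma, adjusted p = 0.349), so EGR1 RNA was not lower under the hairpin labels. In TMD8 it stood at 10.8 FPKM with shEGR1#8, 9.95 FPKM with shEGR1#9 and 7.31 FPKM in the control library. In SUDHL2 it was lower in both hairpin libraries, at 13.7 and 15.4 FPKM, against 17.0 FPKM in the control library. Because EGR1 RNA was not lower under the hairpin labels in 2 of the 3 lines, the groups below are libraries labelled shEGR1#8 or shEGR1#9. The TMD8 and SUDHL2 libraries resembled each other. A TMD8 and a SUDHL2 library correlated at r = 0.867 to 0.930 over 13203 genes (log2 of FPKM + 1), a range that overlaps those within TMD8 (0.893 to 0.915) and within SUDHL2 (0.905 to 0.925) and reaches below both, and single genes such as PLXNC1 and ITGA4 had separate levels in the 2 lines, while OCI-LY10 libraries correlated at 0.981 to 0.994 with each other. In OCI-LY10, short RNA genes held 0.472 to 0.613% of the summed FPKM. They held 63.1% and 60.5% in the TMD8 hairpin libraries and 36.3% in the TMD8 control library, and 54.9%, 53.6% and 55.3% in the SUDHL2 libraries labelled shEGR1#8, shEGR1#9 and control. An OCI-LY10 library held 10319 to 10499 genes at 1 FPKM or more, with a total of 431993 to 445028 FPKM. All 9 B-cell markers (MS4A1, CD79A, CD79B and others) reached 1 FPKM in each OCI-LY10 group. Read totals are unknown, so no counting interval can be given.

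SEMA7A, the lipid-anchored ligand, had 28.6, 24.3 and 29.1 FPKM in the OCI-LY10 libraries labelled shEGR1#8 and 39.9, 31.1 and 32.7 FPKM in those labelled shEGR1#9, against 12.1, 11.3 and 16.0 FPKM in control libraries. All 6 hairpin libraries lay above all 3 controls, and the lowest hairpin library was well clear of the highest control. The means were 27.4 ± 2.64 FPKM with shEGR1#8, 34.5 ± 4.66 FPKM with shEGR1#9 and 13.1 ± 2.54 FPKM in controls (SD, n = 3 each), a ratio of 2.36 for both hairpin labels together. On the scale of log2(FPKM + 1), used for all differences below and understating the change of genes at low levels, the difference was 1.18 ± 0.12 (SE; 95% interval 0.90 to 1.45). It was 1.02 ± 0.14 with shEGR1#8 and 1.34 ± 0.14 with shEGR1#9. Of the 10612 genes fitted, 21 had a larger positive difference, and the median of all of them was 0.03. In bulk RNA a higher level in each cell cannot be told apart from a larger share of cells with the transcript.

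SEMA4A, the T-cell costimulator, was much lower in level and moved the same way by less. It had 1.46, 2.03 and 1.99 FPKM in the libraries labelled shEGR1#8, 1.76, 1.77 and 1.83 FPKM in those labelled shEGR1#9, and 1.13, 1.37 and 1.17 FPKM in controls. All 6 hairpin libraries again lay above all 3 controls, although the nearest pair was close. The difference of both labels from control was 0.34 ± 0.08 (SE; 95% interval 0.15 to 0.53), with 0.34 for shEGR1#8 and 0.33 for shEGR1#9. Over all fitted genes, 12.9% had all 6 hairpin libraries above all 3 controls and 8.22% had all 6 below.

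SEMA4D, also called CD100, showed no such separation. It had 2.16, 2.33 and 2.14 FPKM in the libraries labelled shEGR1#8, 2.32, 2.20 and 2.13 FPKM in those labelled shEGR1#9, and 2.47, 2.23 and 2.11 FPKM in controls. The groups overlapped fully, and the difference was −0.02 ± 0.06 (SE; 95% interval −0.16 to 0.11). The last ligand, SEMA4B, another membrane-bound class 4 member, had 0.804, 0.845 and 1.20 FPKM in the libraries labelled shEGR1#8, 1.10, 0.981 and 0.816 FPKM in those labelled shEGR1#9, and 0.780, 0.971 and 0.628 FPKM in controls. It lay near 1 FPKM, was too low to be fitted, and had overlapping groups with means 0.13 apart on the log2 scale.

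**Figure D1:**
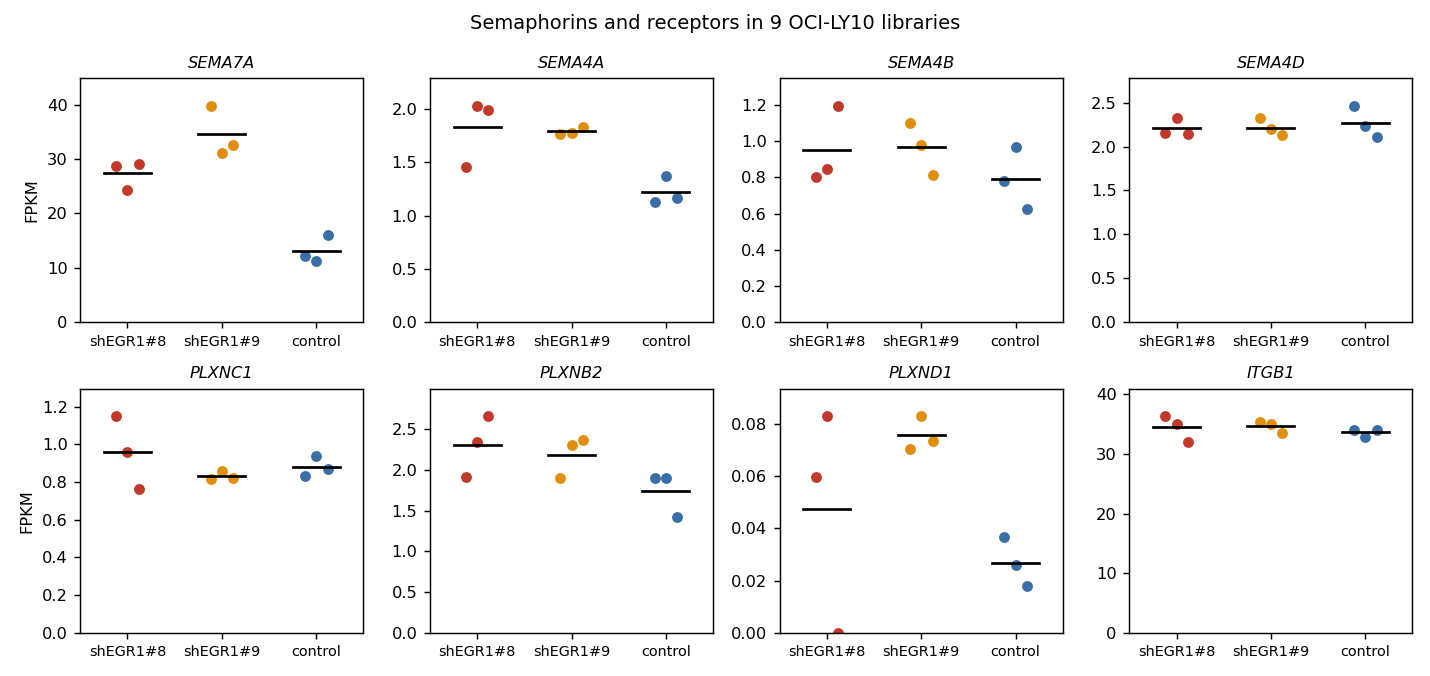
FPKM of each of the 8 genes (vertical axes from 0, 1 scale per gene) in the 9 OCI-LY10 libraries, by hairpin label. Points are libraries and bars are means of 3. SEMA7A (24.3 to 39.9 FPKM under the hairpin labels, 11.3 to 16.0 in controls) and SEMA4A (1.46 to 2.03 and 1.13 to 1.37) separate from the controls, while SEMA4D, PLXNC1 and ITGB1 overlap them.

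The fitted receptors, PLXNB2 and ITGB1, differed less between hairpin labels and control than SEMA7A did. PLXNC1, the plexin of SEMA7A, had 1.15, 0.960 and 0.764 FPKM in the libraries labelled shEGR1#8, 0.816, 0.861 and 0.819 FPKM in those labelled shEGR1#9, and 0.834, 0.937 and 0.870 FPKM in controls. The groups overlapped, and the gene was too low to be fitted. ITGB1, the beta-1 integrin chain and the most abundant receptor of the set, had 36.3, 35.0 and 32.0 FPKM in the libraries labelled shEGR1#8, 35.3, 35.0 and 33.5 FPKM in those labelled shEGR1#9, and 34.0, 32.8 and 34.0 FPKM in controls. Its groups overlapped and its difference was 0.04 ± 0.05 (SE; 95% interval −0.08 to 0.15), so for both receptors of SEMA7A the hairpin libraries and the controls could not be separated.

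PLXNB2, a plexin-B receptor of class 4 semaphorins, had 1.92, 2.34 and 2.66 FPKM in the libraries labelled shEGR1#8, 1.91, 2.30 and 2.37 FPKM in those labelled shEGR1#9, and 1.91, 1.90 and 1.43 FPKM in controls. In 5 of 6 hairpin libraries it lay above all controls, and the difference was 0.24 ± 0.10 (SE; 95% interval 0.02 to 0.47). PLXND1 was barely present, at 0.0594, 0.0828 and 0 FPKM with shEGR1#8, 0.0701, 0.0828 and 0.0735 FPKM with shEGR1#9, and 0.0367, 0.0260 and 0.0177 FPKM in controls. At such levels a listed 0 can be a failed estimate, and the gene was not fitted.

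Of the 8 genes, 5 were fitted, the requirement being 1 FPKM or more in 3 or more of the 9 libraries. With both hairpin labels against control, SEMA7A and SEMA4A passed the threshold of limma's test (adjusted p under 0.05 over all genes) in the higher direction, 0 passed in the lower direction, and SEMA4D, PLXNB2 and ITGB1 did not pass. Over all 10612 genes 5.84% were called higher and 2.71% lower, and since this contrast chose the genes, nothing is read from their share. The split over all genes depends on scaling, with 620 called higher and 288 lower as deposited and 444 higher and 367 lower after quantile normalization. SEMA7A passed with each hairpin label alone (over all genes 3.71% were called higher, 1.62% lower and 5.33% either way with shEGR1#8, and 3.55%, 1.54% and 5.09% with shEGR1#9). SEMA4A did not pass with either label alone, and it also lost its place with both labels under quantile normalization, with no filter on low values, and without any 1 control library, shEGR1#8 replicate 2 or any 1 shEGR1#9 library. SEMA7A kept its call in all 16 alternatives tried, at 1.08 to 1.32.

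Sums of several marker lists moved with the groups as well. The 9 B-cell markers summed to 3472 to 4169 FPKM in libraries labelled shEGR1#8, to 3582 to 3923 FPKM in those labelled shEGR1#9 and to 2805 to 3045 FPKM in controls. Of these, CD74 averaged 1254 FPKM with shEGR1#8, 1280 FPKM with shEGR1#9 and 705 FPKM in controls. CD79A averaged 939, 916 and 591 FPKM in the same order. These 2 genes make up much of the sum, so a rise of the B-cell list as a whole is not shown. Of 12 T and NK cell markers, 2 reached 1 FPKM (CD247 and PRF1). Their list summed to 31.7 to 38.4 FPKM with shEGR1#8, 33.9 to 36.8 FPKM with shEGR1#9 and 20.3 to 23.4 FPKM in controls, while CD3G, CD2, CD4, NKG7, GNLY, KLRD1 and TRAT1 were listed at 0 in all 9 libraries. The 8 myeloid markers summed to 1.38 to 1.72 FPKM with shEGR1#8, 1.90 to 2.07 FPKM with shEGR1#9 and 0.674 to 1.17 FPKM in controls. Of these, CD68 alone reached 1 FPKM in any of the 9 libraries, with LYZ, ITGAM, FCGR3A, MPO and S100A8 listed at 0 in all 9. The 8 stromal and epithelial markers, of which 1 reached 1 FPKM and COL1A1, DCN and CDH1 were listed at 0 in all 9, summed to 6.78 to 8.68 FPKM with shEGR1#8, 6.96 to 7.88 FPKM with shEGR1#9 and 6.11 to 6.31 FPKM in controls. The 6 endothelial and erythroid markers overlapped between groups, at 4.14 to 5.82, 4.99 to 5.57 and, in controls, 4.67 to 5.68 FPKM. The part of these shifts in the values of SEMA7A and SEMA4A was not tested.

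The hairpins can be set against each other, with no control mean in the difference. SEMA7A was higher on average in the libraries labelled shEGR1#9 than in those labelled shEGR1#8, by 0.32 ± 0.14 (SE, 95% interval 0.01 to 0.64). Unless stated, values here come from the unpaired fit of all 9 libraries, whose spread includes the controls. In the 6 hairpin libraries alone, with the replicate number as a block, it was 0.32 ± 0.08 (SE, 95% interval 0.13 to 0.52). That fit was added after seeing the data. Of the 10612 genes fitted, 168 had a larger positive difference. SEMA7A did not pass limma's test (adjusted p = 1.00, also with the replicate number as a block in the 6 hairpin libraries alone). In this contrast 0 of 10612 genes were called by limma, the background was 0.0%, and 267 genes had an unadjusted p under 0.05. SEMA4A differed by −0.01 (95% interval −0.23 to 0.21), SEMA4D by 0.00 (−0.16 to 0.16), PLXNB2 by −0.05 (−0.31 to 0.21) and ITGB1 by 0.01 (−0.13 to 0.15). For ITGB1 this interval leaves room for a change of at most 0.15 log2 units between the hairpins, while for PLXNB2 it is wider. With the replicate block in the hairpin libraries alone, the intervals were −0.28 to 0.25 for SEMA4A and −0.22 to 0.23 for SEMA4D. They were −0.27 to 0.18 for PLXNB2 and −0.15 to 0.17 for ITGB1.

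**Figure D2:**
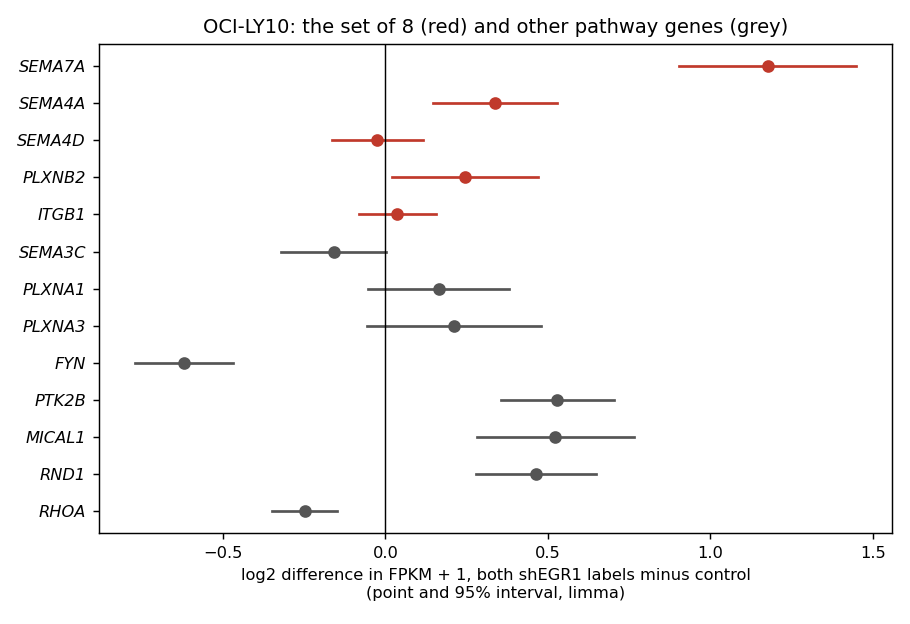
Log2 difference in FPKM + 1 of both hairpin labels minus control in OCI-LY10 (horizontal axis), with 95% intervals from limma, for the 5 fitted genes of the set (red) and 8 other named genes of the pathway list (grey). SEMA7A, at 1.18, lies far to the right of the rest, and FYN, at −0.62, is the lowest.

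The TMD8 and SUDHL2 tables have 1 library per group, so their differences have no replicate check and no p. SEMA7A was again higher in both hairpin libraries of each line. It had 94.5 and 122 FPKM in the TMD8 libraries labelled shEGR1#8 and shEGR1#9, against 70.0 FPKM in the control library, which gives log2 differences of 0.43 and 0.80. In SUDHL2 it had 112 and 110.3 FPKM with the hairpin labels and 64.9 FPKM in the control library, with differences of 0.78 and 0.76. The 2 hairpin comparisons of a line, here as in OCI-LY10, share their controls. Some marker lists of other cell types were also higher in these hairpin libraries, while the B-cell list was not higher throughout. In TMD8 the B-cell markers summed to 1744 and 2227 FPKM with the hairpin labels, against 2065 FPKM in the control library. In SUDHL2 they summed to 1690 and 1746 FPKM, against 1749 FPKM in the control library. The stromal and epithelial markers, 3 of 8 of them at 1 FPKM or more in each library and EPCAM at 0 in all 6, summed to 42.2 and 44.0 FPKM with the hairpin labels and 34.4 FPKM in the control library of TMD8, and to 45.1 and 39.4 FPKM, against 24.1 FPKM in the control library, in SUDHL2. The T and NK markers, of which 0 to 2 of 12 reached 1 FPKM, summed to 4.14 and 3.89 FPKM against 2.01 FPKM in the TMD8 control library, and to 3.63 and 3.33 FPKM against 2.25 FPKM in the SUDHL2 one. Myeloid markers lay on both sides of the control library in each line, at 15.4 and 23.9 FPKM against 17.2 FPKM in TMD8 and 17.5 and 11.8 FPKM against 13.6 FPKM in SUDHL2. Their part in the differences of SEMA7A and SEMA4A was not tested.

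SEMA4A had 2.71 and 2.92 FPKM in the TMD8 libraries labelled shEGR1#8 and shEGR1#9, against 1.30 FPKM in the control library. In SUDHL2 it had 5.16 and 5.95 FPKM with the hairpin labels and 2.70 FPKM in the control library. Its log2 differences were 0.69 and 0.76 in TMD8 and 0.73 and 0.91 in SUDHL2, so it was above its control in all 4 libraries of these lines. SEMA4B split by line, with 1.96 and 3.24 FPKM in TMD8 hairpin libraries against 1.95 FPKM in the control library. In SUDHL2 it had 2.83 and 2.80 FPKM with the hairpin labels and 1.27 FPKM in the control library. SEMA4D stayed near its control in TMD8, at 1.78 and 1.82 FPKM against 1.69 FPKM, and had 2.52 and 3.20 FPKM in SUDHL2 hairpin libraries against 2.34 FPKM in the control library.

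Among the receptors, PLXNC1 had 7.15 and 6.37 FPKM in TMD8 libraries labelled shEGR1#8 and shEGR1#9 and 5.62 FPKM in the control library. In SUDHL2 it had 2.72 and 3.18 FPKM with the hairpin labels, against 1.47 FPKM in the control library. PLXNB2 was above its control in all 4 hairpin libraries, with 6.08 and 8.91 FPKM in TMD8 against 5.10 FPKM and 6.36 and 7.26 FPKM in SUDHL2 against 4.19 FPKM. PLXND1 had 0.598 and 1.60 FPKM in TMD8 hairpin libraries and 0.863 FPKM in the control library, on both sides of it. In SUDHL2 it had 0.822 and 1.37 FPKM with the hairpin labels and 0.635 FPKM in the control library. ITGB1 went opposite ways, with 27.5 and 20.8 FPKM in TMD8 hairpin libraries against 32.7 FPKM, and 25.6 and 23.1 FPKM in SUDHL2 hairpin libraries against 20.0 FPKM.

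Counted by a change of at least 1.5-fold in FPKM + 1, in the same direction with both hairpin labels, 1 of 8 genes was past the fold in TMD8, SEMA4A, where 6.78% of all genes were past it upward and 13.9% downward. In SUDHL2, SEMA7A, SEMA4A, SEMA4B and PLXNC1 were past it, 4 of 8, where 3.83% of all genes were past it upward and 2.16% downward. By the plain ratio of FPKM, a count added after seeing the data, the counts were 1 of 8 in TMD8 (over all genes, 12.1% upward and 16.1% downward) and 5 of 8 in SUDHL2, with PLXNB2 as the fifth (6.83% and 2.46%). These shares too belong to contrasts that chose the genes. Relative to the median of all genes, which lay at −0.09 in the TMD8 library labelled shEGR1#8 and within 0.01 of 0 in the other hairpin libraries, the counts were 1 in TMD8 and 3 in SUDHL2, where PLXNC1 no longer reached the fold (over all genes, 7.43% upward and 12.7% downward in TMD8, 3.71% and 2.21% in SUDHL2). Median-ratio scaling moved that TMD8 median to 0.03, a shift of over 0.1, and changed the TMD8 split over all genes to 996 upward and 1334 downward, against 800 and 1644 as deposited. Under it SEMA7A differed by 0.57 and ITGB1 by −0.10 in the TMD8 library labelled shEGR1#8, so no direction of these genes turned. The shares of short RNA given above differ between the TMD8 hairpin and control libraries, and their part in the TMD8 differences was not tested.

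**Figure D3:**
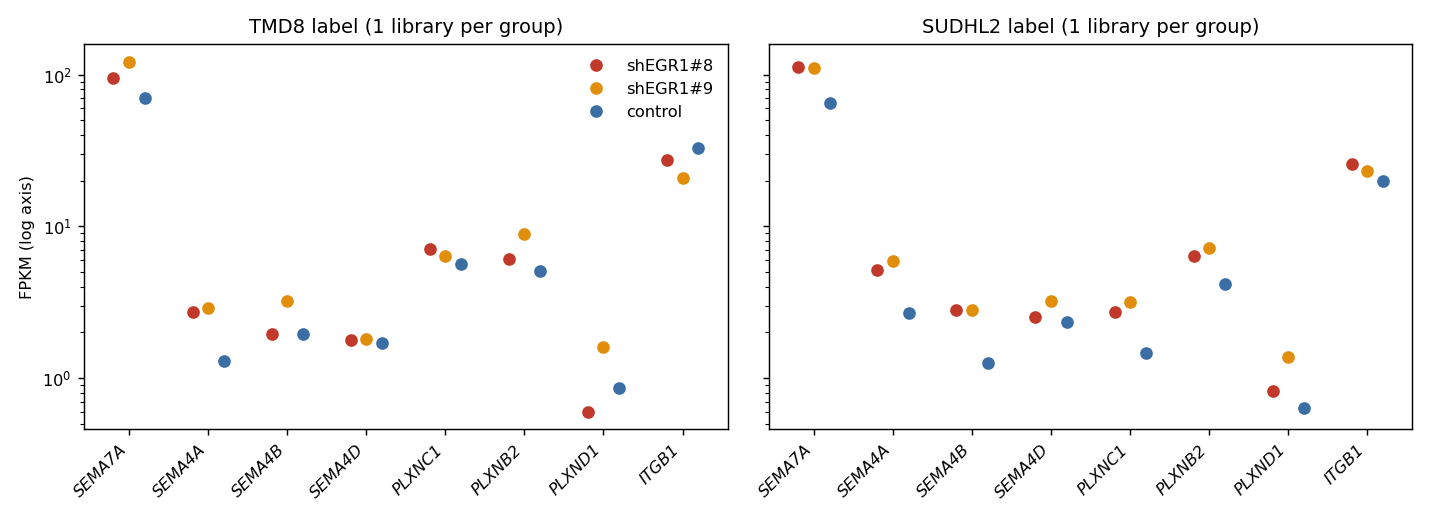
FPKM (log axis) of the 8 genes in the 3 TMD8 and 3 SUDHL2 libraries, 1 point per library. SEMA7A and SEMA4A lie above the control library under both hairpin labels in both lines, and ITGB1 lies below it in TMD8 (27.5 and 20.8 against 32.7) and above it in SUDHL2 (25.6 and 23.1 against 20.0).

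Levels across the 3 lines are a description, since the tables may have been scaled separately. In the OCI-LY10 controls the order of the 8 genes by FPKM was ITGB1 (33.6), SEMA7A (13.1), SEMA4D (2.27), PLXNB2 (1.74), SEMA4A (1.22), PLXNC1 (0.880), SEMA4B (0.793) and PLXND1 (0.0268). PLXNC1 and SEMA4B overlapped between libraries, and every other pair of neighbours was separate in these 3 libraries. In the TMD8 and SUDHL2 controls SEMA7A stood first, above ITGB1, and PLXND1 stood last. PLXNC1 stood at 5.62 FPKM in the TMD8 control and 1.47 FPKM in the SUDHL2 control, and PLXND1 at 0.863 and 0.635 FPKM, all above the OCI-LY10 controls.

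Within the whole family, SEMA7A was the main semaphorin transcript. It made up 66.6 ± 2.59% of the summed FPKM of 20 semaphorins in OCI-LY10 libraries labelled shEGR1#8, 72.2 ± 2.20% in those labelled shEGR1#9 and 49.2 ± 5.92% in controls (SD, n = 3 each). The sums were 41.0 ± 2.45 FPKM with shEGR1#8, 47.8 ± 5.06 FPKM with shEGR1#9 and 26.5 ± 1.92 FPKM in controls. In TMD8 its share was 88.2% and 87.05% with the hairpin labels and 87.11% in the control library, and in SUDHL2 it was 85.9%, 85.4% and, in the control library, 84.4%. Few other semaphorins were present, since 4 to 5 of the 20 reached 1 FPKM in an OCI-LY10 library. SEMA3C, a secreted ligand of neuropilin and plexin-A or plexin-D receptors, was the second most abundant in OCI-LY10, at 5.92 to 8.00 FPKM, and stood at 0.217 FPKM or less in TMD8 and SUDHL2.

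**Figure D4:**
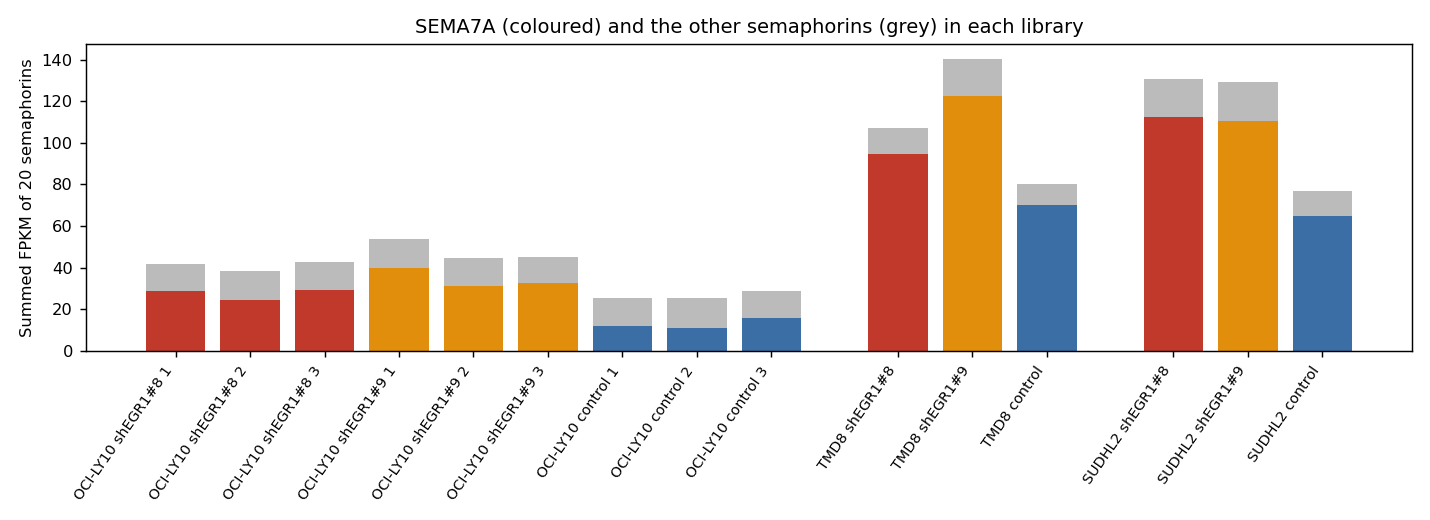
Summed FPKM of 20 semaphorins in each of the 15 libraries (bars from 0), with SEMA7A coloured by hairpin label and all others in grey. The grey part is similar across OCI-LY10 libraries while the SEMA7A part is larger under the hairpin labels, with a sum of 41.0 and 47.8 FPKM on average against 26.5 in controls.

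Listed levels of partner chains of the SEMA7A receptors differed between the tables of the lines. These genes were picked after their values were seen. Each line has its own table, and the shares of short RNA given above differ between OCI-LY10 and the other tables. A difference between lines therefore cannot be told apart from one in library type or processing. Of 12 integrin alpha chains that pair with beta-1, only ITGAV reached 1 FPKM in OCI-LY10, at 1.15 to 1.97 FPKM. ITGA1, which with ITGB1 forms the collagen receptor that SEMA7A binds, was listed at 0 in 8 of 9 OCI-LY10 libraries, and at 5.87 to 9.28 FPKM in TMD8 and 5.03 to 6.80 FPKM in SUDHL2. ITGA4, the alpha chain of the lymphocyte homing integrin, was listed at 0 in all 9 OCI-LY10 libraries and at 16.1 to 19.4 FPKM in TMD8 and 9.22 to 11.3 FPKM in SUDHL2. CD72, the B-cell receptor of SEMA4D, had 39.8 to 47.7 FPKM in OCI-LY10, 11.1 to 18.0 FPKM in TMD8 and 9.94 to 13.9 FPKM in SUDHL2. NRP1, a co-receptor of secreted semaphorins, was listed at 0 in all 15 libraries.

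**Figure D5:**
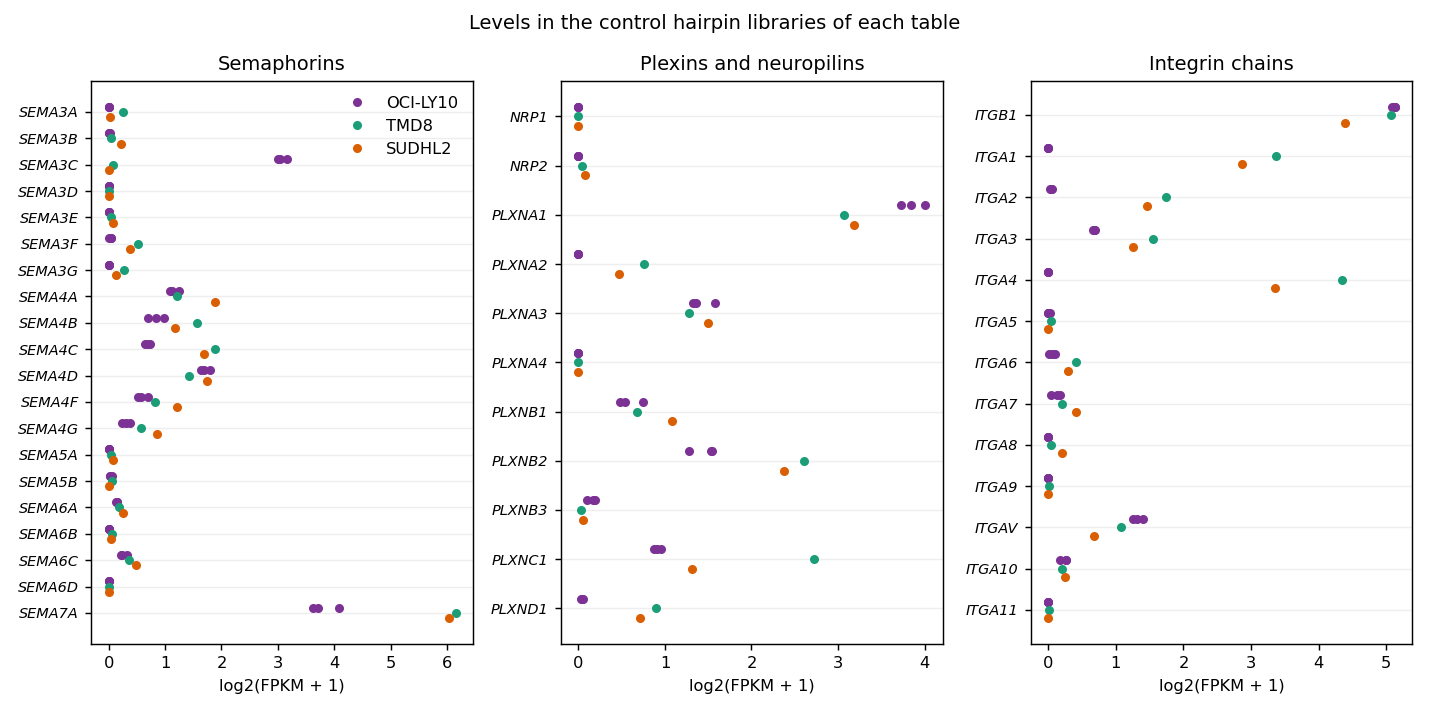
Levels as log2(FPKM + 1) of semaphorins, plexins with neuropilins, and integrin chains in the control hairpin libraries (3 points for OCI-LY10, 1 each for TMD8 and SUDHL2). SEMA7A is the highest semaphorin in all 3 lines, SEMA3C is present in OCI-LY10, and ITGA1 and ITGA4 are at 0 in OCI-LY10 controls and above 2 on this scale in the others.

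The rest of the pathway was read from a list of 92 other genes (16 semaphorins, 14 receptors, 26 integrin partners, 33 signalling genes of plexins and 3 proteases that shed semaphorins), which was drawn up by function with earlier results of these data known. In OCI-LY10, 43 of the 92 were fitted, and 3 rose, 2 fell and 38 did not pass limma's test with both hairpin labels against control, where 8.56% of all genes were called in either direction. The median difference of the list was 0.07, beside 0.03 over all genes. The same 5 genes passed with each hairpin label alone. None of the 5 receptors and neither the single fitted semaphorin nor the 2 fitted proteases of the list passed.

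FYN, a Src-family kinase that acts downstream of plexin-A, fell in OCI-LY10. It had 3.03, 2.73 and 3.06 FPKM in libraries labelled shEGR1#8, 2.65, 2.54 and 3.14 FPKM in those labelled shEGR1#9, and 4.82, 4.95 and 4.99 FPKM in controls, a difference of −0.62 ± 0.07 (SE; limma, adjusted p = 0.00107). All 6 hairpin libraries lay below all 3 controls. In TMD8 it stood at 4.97 and 6.42 FPKM with the hairpin labels against 7.07 FPKM in the control library, and in SUDHL2 at 3.47 and 5.40 FPKM against 5.36 FPKM.

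PTK2B, the adhesion kinase also called PYK2, rose. It had 30.0, 30.4 and 37.3 FPKM in libraries labelled shEGR1#8, 30.8, 32.5 and 33.9 FPKM in those labelled shEGR1#9, and 23.1, 22.4 and 20.9 FPKM in controls, with 6 of 6 hairpin libraries above all controls and a difference of 0.53 ± 0.08 (SE; limma, adjusted p = 0.00496). It was above its control in the TMD8 hairpin libraries, at 4.35 and 4.74 FPKM against 3.76 FPKM, and in the SUDHL2 ones, at 9.29 and 10.6 FPKM against 7.56 FPKM.

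MICAL1, an enzyme that oxidises actin and binds plexin-A, rose by 0.52 ± 0.11 (SE; limma, adjusted p = 0.0191), with means of 16.8 FPKM with shEGR1#8, 16.4 FPKM with shEGR1#9 and 11.2 FPKM in controls. RND1, a small GTPase that binds plexins, rose by 0.46 ± 0.08 (SE; limma, adjusted p = 0.0112), with means of 2.58 FPKM with shEGR1#8, 2.70 FPKM with shEGR1#9 and 1.63 FPKM in controls. RHOA, the GTPase that plexin-B receptors act on, fell by 0.25 ± 0.04 (SE; limma, adjusted p = 0.0106), with means of 245.8 and 252.0 FPKM under the hairpin labels and 295.9 FPKM in controls. Each of the 3 separated all 6 hairpin libraries from all 3 controls. MICAL1 and RHOA lost their calls without any 1 of the 3 control libraries (highest adjusted p 0.101 and 0.0661), and RND1 without control replicate 2 or 3 (highest 0.0615).

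Of the other family members with a mean of at least 1 FPKM, SEMA3C differed by −0.16 (limma, adjusted p = 0.198), PLXNA1, a plexin of secreted semaphorins, by 0.16 (adjusted p = 0.313) and PLXNA3 by 0.21 (adjusted p = 0.292), and these 3 did not pass. PLXNB1, the main plexin of SEMA4D outside the immune system, is named after its values were seen. It had 0.702, 1.08 and 1.32 FPKM in OCI-LY10 libraries labelled shEGR1#8, 0.790, 0.919 and 1.11 FPKM in those labelled shEGR1#9, and 0.449, 0.676 and 0.390 FPKM in controls. It entered the fit through its hairpin libraries and did not pass (0.40 ± 0.11 SE; limma, adjusted p = 0.0688). In TMD8 it stood at 0.934 and 1.37 FPKM with the hairpin labels against 0.597 FPKM in the control library, and in SUDHL2 at 1.87 and 2.48 FPKM against 1.11 FPKM. In the TMD8 table, 2 of 57 list genes above the filter were past 1.5-fold in FPKM + 1 upward and 5 downward, beside 6.78% and 13.9% of all genes, and relative to the median of all genes 4 were past it upward and 5 downward (7.43% and 12.7%). In SUDHL2, 1 gene was past it upward and 0 downward, beside 3.83% and 2.16% of all genes. By the plain ratio of FPKM, 5 list genes were past it upward and 6 downward in TMD8 (12.1% and 16.1%), and 7 upward and 0 downward in SUDHL2 (6.83% and 2.46%), PLXNB1 among those upward in both.

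The genes whose profile over the 9 OCI-LY10 libraries was most like that of SEMA7A were CCL4 (Pearson r = 0.975), C5orf30 (0.974), OAS1 (0.968), EPSTI1 (0.965) and USP18 (0.965). CCL4 is a chemokine, and OAS1, EPSTI1 and USP18 are genes that interferon induces. These libraries share the group difference, and with group means taken away the 5 most alike were other genes: RPL21P28 (0.980), LOC100506713 (0.935), ZNF416 (0.932), SNX12 (0.919) and C6orf147 (0.917).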

How the data were processed

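Per the labels' protocols, a TruSeq RNA kit served for the complementary DNA libraries. Bowtie2, HISAT and StringTie with build hg19 were used, per the submitters' processing notes. What role each had, in which version and with which annotation, is not stated in the sources used here. The authors deposited 1 table per cell line, with 1 value per gene and library. Neither labels nor headers name the unit, and the deposited values were read as FPKM because they are not whole numbers and do not sum to a fixed total. Lines with a repeated name (4 in OCI-LY10, 10 in TMD8, 10 in SUDHL2) were left out, as were 430 lines at the end of the SUDHL2 table, from a line that joins into a copy of the end of the TMD8 table.

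Libraries were grouped by title and treatment label. In OCI-LY10, genes with at least 1 FPKM in at least 3 of 9 libraries (10612) were fitted as log2(FPKM + 1) with limma 3.58.1 under R 4.3.3, using group means, a mean-variance trend and Benjamini-Hochberg adjustment. Contrasts were each EGR1 hairpin label and their average against control, and shEGR1#9 against shEGR1#8. In TMD8 and SUDHL2, log2 differences were taken for genes with at least 1 FPKM in at least 1 of 3 libraries. Other steps used Python 3.11.15. The fit was tested on simulated data. Deviations from group means of same-numbered libraries correlated at 0.173, 0.134 and 0.260 between the 2 hairpin groups, and those of differently numbered ones at −0.269 to 0.146. The numbers were therefore taken as pairs there, from the data and not the labels, in an added fit of the hairpin libraries alone. The main fit was unpaired.

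The 8 genes, the pathway list and the tests were chosen with earlier results of these data known. Genes named beyond the 8 were EGR1, list genes called with both labels, semaphorins, plexins and neuropilins averaging at least 1 FPKM, and the 5 genes most correlated with SEMA7A, before and after removing group means. Genes picked outside this rule are said to be so. Alternatives were the pseudocount, the filter, 2 normalizations, the trend, library weights, a replicate term and leaving out each library, and, added after seeing the data, the plain FPKM ratio and a fit of the 6 hairpin libraries alone.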

Additional observations from a re-analysis of the deposited data

Results flagged for a closer look

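ITGB1 was flagged because every hairpin library moved one way in TMD8 and the other way in SUDHL2. Averaged over both hairpin labels, the log2 difference from control was −0.43 in TMD8 (27.5 and 20.8 FPKM, against 32.7 FPKM in the control library) and 0.27 in SUDHL2 (25.6 and 23.1 FPKM, against 20.0 FPKM). The difference between the lines was not tested, since each group has 1 library, and in OCI-LY10 the value was 0.04 ± 0.05 (SE). Both hairpin libraries of a line share 1 control library. Of 11807 genes in TMD8, 4610 fell further than ITGB1 with shEGR1#8 and 1999 with shEGR1#9. Of 11631 genes in SUDHL2, 1780 rose further than ITGB1 with shEGR1#8 and 3765 with shEGR1#9. How many genes moved opposite ways in TMD8 and SUDHL2 was not counted.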

How the results depend on the processing

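SEMA7A kept its direction and its side of the threshold in all 16 alternatives with both labels and with each label alone, and SEMA4D, PLXNB2 and ITGB1 stayed on the other side in all 16. The contrasts with control chose these genes, so a kept call is a description of the processing and no further support. SEMA4A kept its direction throughout (0.28 to 0.53) and passed in 7 of 16 with both labels. It was lost with no filter, under quantile normalization and without each control library, shEGR1#8 replicate 2 or any 1 shEGR1#9 replicate. Over all genes, 908 were called with both labels, 566 with shEGR1#8, 540 with shEGR1#9 and 0 between the hairpins. Array weights gave 1914 with both labels, 1950 with shEGR1#9 and 11 of the pathway list instead of 5. With no filter, 1 gene was called between the hairpins. With a pseudocount of 0.1, 1116 genes were past the fold in SUDHL2 instead of 697. Leaving out 1 library gave 285 to 1312 calls with both labels (the lowest 3, 285, 314 and 315, without a control), 134 to 696 with shEGR1#8, 144 to 1143 with shEGR1#9, 0 to 9 between the hairpins and 2 to 7 of the pathway list. Counts moved by over 1.5 times without any 1 control library for each label (134, 136 and 161 with shEGR1#8, 144, 168 and 192 with shEGR1#9) and for the list (2, 2 and 3). They also did so with both labels without shEGR1#9 replicate 2 or 3 (534 and 539), with shEGR1#8 without shEGR1#9 replicate 1 or 2 (340 and 267), and with shEGR1#9 without shEGR1#8 replicate 3 (1143) or any 1 shEGR1#9 library (148, 169 and 222). FYN and PTK2B kept their calls in all 16 alternatives. The causes were not tested. Against control, same-numbered libraries did not deviate together (r = −0.19 to 0.06 over 6 pairs with a control library; 5 of all 9 libraries closest to their own number), so the numbers were not taken as pairs there. The replicate block gave 775 calls with both labels, 349 with shEGR1#8, 351 with shEGR1#9, 0 between the hairpins and 5 of the list. Between the hairpins the numbers were taken as pairs in the added fit of the hairpin libraries alone, and not in the main fit. Even there, shEGR1#8 replicate 2 deviated more like shEGR1#9 replicate 1 (r = 0.146) than like shEGR1#9 replicate 2 (0.134). In the 6 hairpin libraries alone 0 genes were called with the replicate block (310 at an unadjusted p under 0.05) and 0 with no replicate block (204), a fit added after seeing the data. Also added then, the plain FPKM ratio put 1050 genes past the fold in SUDHL2 and 3240, instead of 2444, in TMD8. Unknown read depth limits SEMA4B, PLXNC1 and PLXND1 in OCI-LY10, at or under about 1 FPKM.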
